A study of Rattus norvegicus with 27 samples.

Results

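The proteasome is the protease complex that degrades most ubiquitin-tagged proteins. Its core particle is a stack of alpha and beta rings with the peptidase sites inside. A regulatory particle, made of a base with an ATPase ring and a lid, binds ubiquitin chains, removes them and unfolds the substrate, and activators such as PA28 and PA200 can cap the core instead. In neurons the complex is known for its part in synaptic protein turnover and in clearing misfolded proteins.

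The genes described here were those whose symbol in the platform annotation starts with Psma, Psmb, Psmc, Psmd, Psme, Psmf or Psmg, measured by probe sets with 1 gene symbol, with the brightest probe set standing for a gene. This gave 41 genes, covered by 47 probe sets, among 9769 genes and 12913 probe sets tested. By role they were 6 alpha ring genes, 6 constitutive beta ring genes, 3 immunoproteasome beta genes, 6 base ATPases, 3 other base subunits, 6 lid subunits, 4 activators and inhibitors, and 6 assembly chaperones. The remaining gene, Psmc3ip, carries the prefix because its product was named for binding Psmc3, and is not a subunit. Psma2, Psma8, Psmb6, Psmb11, Psmd11, Psmd13, Psme3, Psmd10 and Psme3ip1 had no single-symbol probe set and were not analysed here.

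The RNA came from tail motor neurons of the sacral spinal cord of male Wistar rats, whose age the labels do not state. Spi-21 (8 arrays) and Spi-60 (8 arrays) were taken 21 and 60 days after the cord was transected at S2 and a piece of it removed. ShamC-21 (6 arrays) and ShamC-60 (5 arrays) were taken 21 and 60 days after a sham operation with the vertebral arch removed and the dura unopened. All 4 groups had laminectomy and buprenorphine, and in all of them the neurons were filled by retrograde Fluorogold, cut out by laser and pooled, and their RNA was amplified in successive rounds before it was put on Affymetrix rat arrays. Transection removes the descending and long propriospinal input of these neurons but leaves the neurons and their muscle connection in place. Samples are numbered as biological replicates but are not tied to animals, so each p-value reflects only how these samples scattered. The comparison of Spi with ShamC at each day asks which transcripts differ in the neurons below a lesion.

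Values are log2 signals after RMA. Differences are Spi minus ShamC with the standard error of a limma fit across all 27 arrays, and a gene passed when its p, adjusted by Benjamini-Hochberg over all 12913 probe sets, was under 0.05. In pooled neurons, fewer cells of a type and less RNA per cell cannot be told apart. Motor neuron markers (9 of 11 measured, among them Slc18a3 and Isl1) averaged 10.7 to 11.0 in Spi-21, 10.8 to 11.0 in ShamC-21, 10.8 to 11.0 in Spi-60 and 9.44 to 11.0 in ShamC-60 arrays, where ShamC-60 replicate 4 held the 9.44. Microglial markers (10 of 11 measured) averaged 5.82 to 7.40 in Spi-21, 6.21 to 6.58 in ShamC-21, 6.18 to 7.46 in Spi-60 and 6.12 to 6.66 in ShamC-60 arrays, and no defining marker was at 0. At 21 and 60 days the markers that rose were 1 and 4 of 9 for motor neurons, 3 and 1 of 7 for astrocytes, 2 and 1 of 8 for oligodendrocytes, 3 and 1 of 10 for microglia, 0 and 0 of 3 for endothelium and pericytes, 1 and 0 of 3 for blood cells, and 1 and 0 of 6 for other neurons. Of these lists, 1 marker of other neurons fell at 21 days and 1 of blood cells at 60 days. Over all genes 11.1% rose and 11.5% fell at 21 days, and 10.7% rose and 9.44% fell at 60 days. ShamC-60 replicate 1 had an oligodendrocyte marker mean of 8.78 and a blood marker mean of 8.02. The difference between the 3' and 5' control probe sets of beta-actin, which rises with shortened RNA and also with a higher 3' signal, was 2.86 to 3.60 in Spi-21 and 1.97 to 2.65 in ShamC-21 arrays, and 2.75 to 3.77 in Spi-60 and 1.92 to 2.42 in ShamC-60 arrays. The part of RNA quality in the results below was not tested.

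At 21 days 4 of the 41 genes rose and 6 fell, or 24.4% together, against 22.6% of all genes that passed in either direction. At 60 days 6 rose and 5 fell, or 26.8%, against 20.1% of all genes. The median difference over the members was -0.07 at 21 days and -0.00 at 60 days, against 0.01 and 0.02 over all genes. The share that passed was therefore near the background at both days, and members of the same particle moved in opposite directions. The changes were small: at 21 days 0 members, against 1.64% of all genes, exceeded 2-fold, and at 60 days 1 member did, against 2.48% of all genes. It was Psmd14, which was 2.02-fold lower in Spi-60 than in ShamC-60. With quantile normalization of the deposited values the split was 7 higher and 5 lower at 21 days and 9 higher and 4 lower at 60 days. In that setting 12.2% of all probe sets passed higher and 9.32% lower at 21 days, and 10.7% and 7.71% at 60 days.

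**Figure D1:**
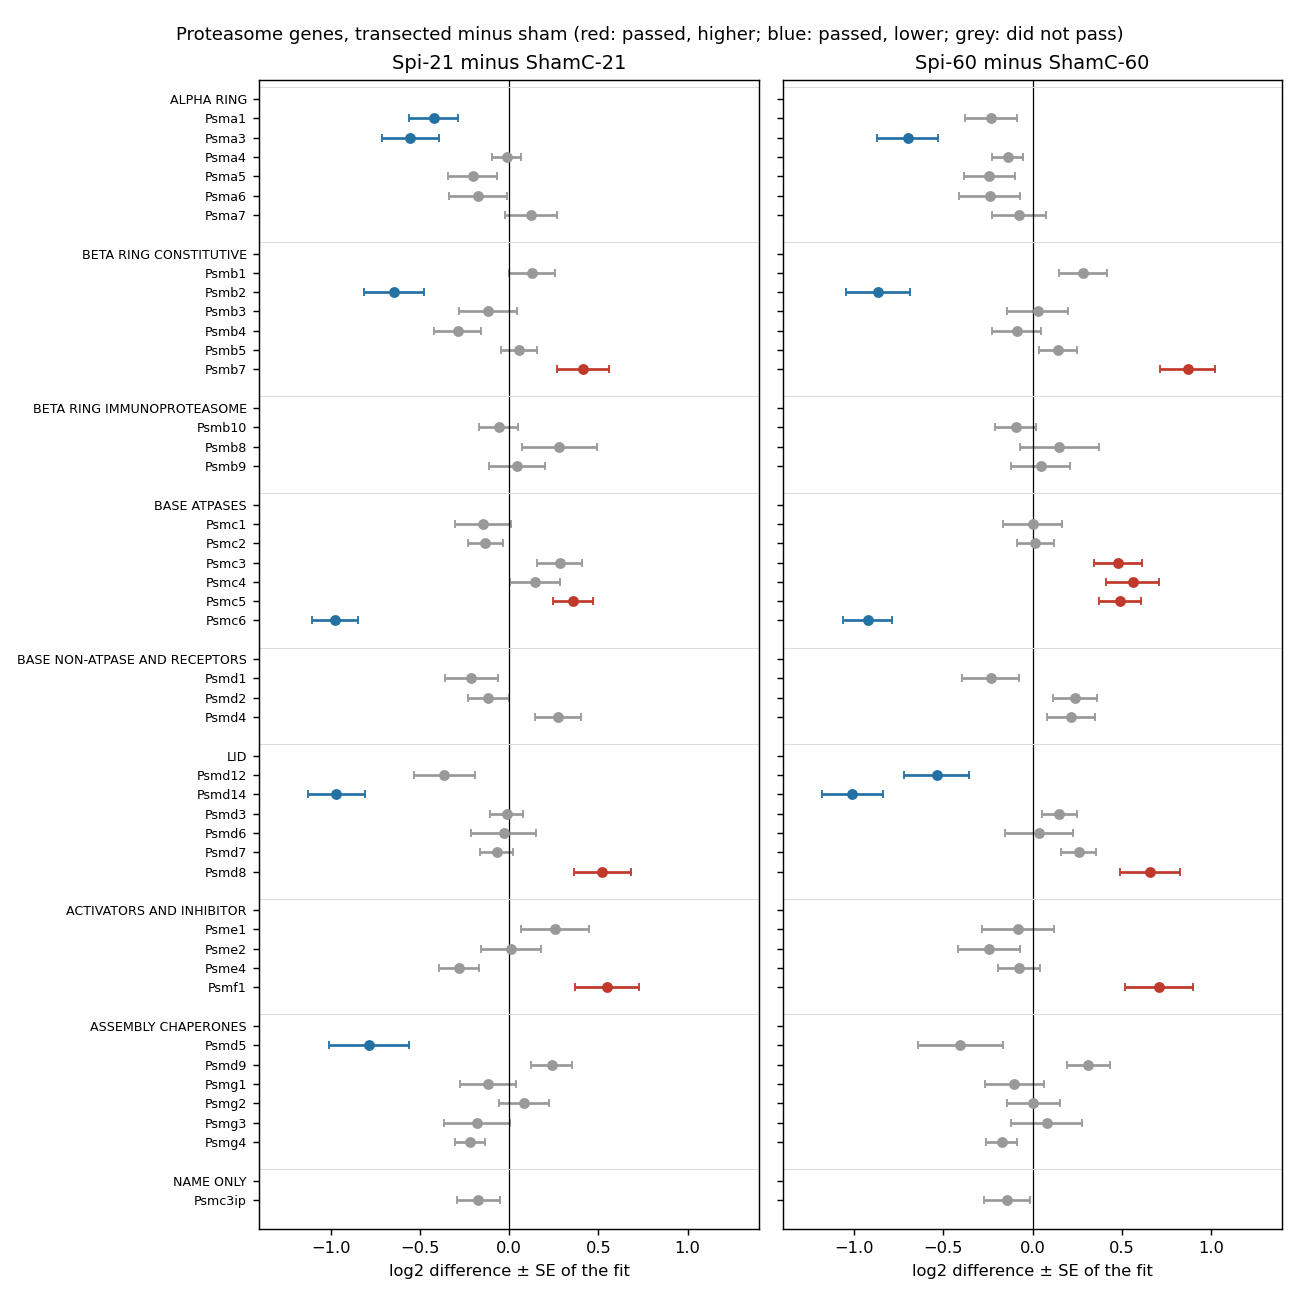
Log2 difference, Spi minus ShamC, with the standard error of the limma fit, for each of the 41 genes at 21 days and at 60 days, ordered by role. The points lie between -1.01 and 0.87, and Psmc6 and Psmd14 lie lowest at both days while Psmb7, Psmf1 and Psmd8 lie highest at 60 days.

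The upstream sequence of 4 genes is given here because the genes that passed at both days included 3 that fell and carry or lack a match to the antioxidant response element (Psma3, Psmb2 and Psmc6) and 1 that rose (Psmb7). The 250 bases before the annotated gene start were taken from the RefSeq promoter table, build GRCr8, in which 37 of the 41 members had an entry; Psmd14 had none. The element is bound by factors of the Nfe2l family, which are known to drive proteasome genes, and its core was searched as TGACNNNGC on both strands. Capitals mark a match, and lower case the rest.
Psma3, chr6:95219499-95219748, plus strand: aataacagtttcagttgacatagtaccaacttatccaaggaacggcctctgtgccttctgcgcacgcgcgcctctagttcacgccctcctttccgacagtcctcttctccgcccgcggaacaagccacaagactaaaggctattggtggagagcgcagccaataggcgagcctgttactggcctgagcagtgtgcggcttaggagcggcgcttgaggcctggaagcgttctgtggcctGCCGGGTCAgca
Psmb2, chr5:144254808-144255057, plus strand: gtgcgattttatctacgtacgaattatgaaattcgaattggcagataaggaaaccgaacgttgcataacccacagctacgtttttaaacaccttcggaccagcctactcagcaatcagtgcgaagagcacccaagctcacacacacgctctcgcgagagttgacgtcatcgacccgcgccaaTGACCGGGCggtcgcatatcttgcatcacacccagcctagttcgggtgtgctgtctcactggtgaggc
Psmc6, chr15:21022064-21022313, plus strand: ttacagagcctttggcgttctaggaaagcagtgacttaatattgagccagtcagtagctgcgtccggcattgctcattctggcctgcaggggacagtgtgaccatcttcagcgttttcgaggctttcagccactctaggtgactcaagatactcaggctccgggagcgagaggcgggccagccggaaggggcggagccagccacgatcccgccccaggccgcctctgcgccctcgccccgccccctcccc
Psmb7, chr3:42827471-42827720, minus strand: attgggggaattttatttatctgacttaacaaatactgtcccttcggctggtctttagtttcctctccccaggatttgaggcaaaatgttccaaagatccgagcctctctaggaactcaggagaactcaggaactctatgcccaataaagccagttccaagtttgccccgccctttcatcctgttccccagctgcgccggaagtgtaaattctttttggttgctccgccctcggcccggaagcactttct

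In this window the core matched in 6 of 37 members (16.2%), against 10.1% of the 33469 promoters of the table. The 6 were Psma3, Psmb2, Psmb5, Psmd1, Psmd9 and Psme4, and in Psma3 the match began 12 bases and in Psmb2 68 bases before the gene start. Psma3 and Psmb2 fell at both days, and 0 of the 4 members that rose at both days carried a match. Psmb5, Psmd1, Psmd9 and Psme4, with a match, passed at neither day, and Psmc6, which fell at both days, had none. Whether a match goes with the direction of change was not tested. Over the same 37 members the CCAAT box matched in 17 (45.9%, against 34.0% of all promoters), the GC box GGGCGG in 27 (73.0%, against 30.5%) and the ETS core CCGGAAG in 9 (24.3%, against 7.27%). Both strands were searched, and none of the 4 motifs contains another. The promoters of the table were not limited to measured genes, and base composition was not taken into account. A match is a description of these letters and not a site.

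The alpha ring forms the gate of the core, and its median difference was -0.19 at 21 days and -0.24 at 60 days. At 21 days 0 of 6 rose and 2 fell, and at 60 days 0 rose and 1 fell. For Psma3, the lowest, median and highest values were 8.24, 8.45 and 9.02 in Spi-21, against 8.75, 9.13 and 9.27 in ShamC-21. At 60 days they were 7.70, 8.37 and 8.71 in Spi-60, against 9.29, 8.93, 9.32, 8.63 and 8.68 in replicates 1 to 5 of ShamC-60. Of the Spi arrays 6 of 8 lay below every ShamC array at each day, and the groups overlapped. The difference was -0.55 ± 0.16 at 21 days (limma, adjusted p = 0.0158) and -0.70 ± 0.17 at 60 days (limma, adjusted p = 0.00532). Psma1 spanned 7.48, 7.93 and 8.28 in Spi-21, against 8.06, 8.28 and 8.73 in ShamC-21, and 6 of the 8 Spi-21 arrays lay below all ShamC-21 arrays. Its difference was -0.42 ± 0.14 (limma, adjusted p = 0.0276), a call that ended without Spi-21 replicate 1, 2 or 3 or ShamC-21 replicate 1, 2 or 4, with an adjusted p of up to 0.0926. At 60 days Psma1 did not pass, with -0.23 (limma, adjusted p = 0.263). There it spanned 7.69, 8.14 and 8.41 in Spi-60, against 8.50, 8.23, 8.34, 8.44 and 8.05 in ShamC-60. Psma5 spanned 9.22, 9.97 and 10.19 in Spi-21, against 9.67, 10.10 and 10.28 in ShamC-21, and 9.55, 9.82 and 10.18 in Spi-60, against 10.33, 9.90, 9.97, 10.23 and 10.09 in ShamC-60, and its differences of -0.20 and -0.24 did not pass. The other members, Psma4, Psma6 and Psma7, differed by between -0.24 and 0.12 and did not pass at either day.

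The constitutive beta ring carries the peptidase sites, of which Psmb5 holds the chymotrypsin-like and Psmb7 the trypsin-like one. One member rose and another fell at both days. Psmb7 spanned 8.77, 9.29 and 9.70 in Spi-21, against 8.74, 8.89 and 8.99 in ShamC-21, and 7 of 8 Spi-21 arrays lay above every ShamC-21 array. At 60 days it spanned 9.19, 9.51 and 9.76 in Spi-60, against 8.66, 8.83, 8.90, 7.84 and 8.92 in ShamC-60, and the groups did not overlap. The differences were 0.41 ± 0.15 at 21 days (limma, adjusted p = 0.0423) and 0.87 ± 0.15 at 60 days (limma, adjusted p = 0.000331). The 21-day call ended without any 1 of Spi-21 replicates 1 to 4 or of ShamC-21 replicates 1, 2, 4, 5 and 6, with an adjusted p of up to 0.0879, and replicate 4 was the lowest ShamC-60 array.

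Psmb2, a structural beta subunit with no active site, moved the other way. It spanned 7.62, 8.42 and 8.83 in Spi-21, against 8.63, 9.04 and 9.26 in ShamC-21. In the later groups it spanned 7.77, 8.39 and 8.97 in Spi-60, against 9.12, 9.18, 9.28, 9.57 and 9.40 in ShamC-60. All 8 Spi-60 arrays lay below the ShamC-60 arrays, while 1 of the 8 Spi-21 arrays lay within the ShamC-21 range. The differences were -0.65 ± 0.17 (limma, adjusted p = 0.00832) and -0.86 ± 0.18 (limma, adjusted p = 0.00142).

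Psmb5 gave 12.03, 12.17 and 12.39 in Spi-21, against 11.86, 12.16 and 12.27 in ShamC-21, and 12.10, 12.31 and 12.55 in Spi-60, against 12.11, 12.22, 12.30, 11.69 and 12.55 in ShamC-60. The groups overlapped, and the differences of 0.06 and 0.14 did not pass. Psmb4 spanned 11.47, 11.76 and 12.29 in Spi-21, against 11.89, 12.07 and 12.39 in ShamC-21, and 11.58, 12.02 and 12.36 in Spi-60, against 12.13, 12.18, 12.12, 11.87 and 12.13 in ShamC-60, with overlap at both days. It differed by -0.29 (limma, adjusted p = 0.107) and -0.09 (limma, adjusted p = 0.681). Psmb1 and Psmb3 differed by between -0.12 and 0.28 and did not pass at either day. Among the 6 constitutive beta genes 1 passed in each direction at each day.

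The immunoproteasome subunits Psmb8, Psmb9 and Psmb10 replace their constitutive partners in immune and inflamed cells, and 0 of 3 passed at either day. Psmb8 spanned 5.54, 6.32 and 7.03 in Spi-21, against 5.85, 6.06 and 6.26 in ShamC-21, and 6.14, 6.21 and 7.65 in Spi-60, against 6.70, 6.07, 6.11, 6.54 and 6.12 in ShamC-60. Its differences were 0.28 ± 0.21 and 0.15 ± 0.22 (limma, adjusted p = 0.346 and 0.67). The highest Spi-60 value was that of replicate 8, which also had the highest microglial marker mean of its group, 7.46, and Spi-21 replicate 4, with 7.03, had the highest of its group, 7.40. Other marker means of these arrays were also the highest of their group. In Spi-60 replicate 8 these were astrocytes (9.93), oligodendrocytes (8.61) and other neurons (6.62). In Spi-21 replicate 4 they were astrocytes (9.54), endothelium and pericytes (6.22) and other neurons (6.60). The part of RNA from microglia or these other cells in the Psmb8 values was not tested. Psmb9 spanned 5.73, 6.16 and 6.92 in Spi-21, against 5.92, 6.10 and 6.59 in ShamC-21, and 5.92, 6.24 and 6.89 in Spi-60, against 6.63, 6.07, 6.29, 6.08 and 6.32 in ShamC-60, and the differences were 0.04 at both days. Psmb10 spanned 7.15, 7.53 and 7.77 in Spi-21, against 7.31, 7.61 and 7.75 in ShamC-21, and 7.31, 7.63 and 8.00 in Spi-60, against 7.64, 8.01, 7.51, 7.81 and 7.83 in ShamC-60, with differences of -0.06 and -0.10. In both genes the groups overlapped.

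The 6 base ATPases, Psmc1 to Psmc6, form the ring that unfolds substrates and opens the gate of the core. At 21 days 1 rose and 1 fell, and at 60 days 3 rose and 1 fell. Psmc6 had the smallest p of the 41 genes at both days. It spanned 9.31, 9.60 and 9.68 in Spi-21, against 10.22, 10.61 and 10.63 in ShamC-21, and 8.92, 9.31 and 9.81 in Spi-60, against 10.48, 10.33, 10.48, 9.93 and 10.21 in ShamC-60. All 8 Spi arrays lay below all ShamC arrays at each day. The differences were -0.98 ± 0.13 (limma, adjusted p = 1.44e-05) and -0.93 ± 0.14 (limma, adjusted p = 4.52e-05). The other probe sets of Psmc6 also fell, by 0.64 and 1.00 at 21 days and by 0.75 and 0.76 at 60 days, so all 3 passed at both days.

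Psmc5 rose at both days. It spanned 8.69, 9.16 and 9.38 in Spi-21, against 8.60, 8.71 and 8.92 in ShamC-21, with 6 of 8 Spi-21 arrays above every ShamC-21 array. By day 60 it spanned 8.71, 9.10 and 9.37 in Spi-60, against 8.84, 8.62, 8.53, 8.37 and 8.53 in ShamC-60, and again 6 of 8 lay above. The differences were 0.36 ± 0.11 (limma, adjusted p = 0.0221) and 0.49 ± 0.12 (limma, adjusted p = 0.00472). The 21-day call ended without ShamC-21 replicate 5 (limma, adjusted p = 0.0516).

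Psmc4 rose at 60 days. At 21 days it had 9.10, 9.49 and 9.84 in Spi-21, against 9.13, 9.33 and 9.52 in ShamC-21, and its difference of 0.14 did not pass (limma, adjusted p = 0.488). It spanned 9.24, 9.58 and 10.11 in Spi-60, against 9.23, 9.12, 9.17, 8.57 and 9.23 in ShamC-60, so the groups did not overlap, and replicate 4 was again the lowest ShamC-60 array. The difference was 0.56 ± 0.15 (limma, adjusted p = 0.00969). Psmc3, chosen for description after its values were seen, gave 8.67, 8.83 and 9.07 in Spi-21, against 8.38, 8.55 and 8.67 in ShamC-21, without overlap before rounding, and its 0.28 missed the threshold (limma, adjusted p = 0.104). At 60 days it rose by 0.48 ± 0.13 (limma, adjusted p = 0.0133), with 8.49, 8.93 and 9.42 in Spi-60, against 8.49, 8.39, 8.62, 8.17 and 8.53 in ShamC-60, and 5 of 8 Spi-60 arrays lay above every ShamC-60 array. Without ShamC-60 replicate 4, which had the lowest value of its group in 24 of the 41 genes, the 60-day calls of Psmc4 (limma, adjusted p = 0.0529), Psmc3 (0.0554) and Psmf1 (0.0615) ended. Without ShamC-60 replicates 1 and 4 together that of Psmd8 ended too (limma, adjusted p = 0.117), which left 2 higher and 5 lower. In that setting 3.66% of all probe sets passed higher and 2.52% lower at 60 days. Psmc1 and Psmc2 differed by between -0.15 and 0.02 and did not pass at either day.

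**Figure D2:**
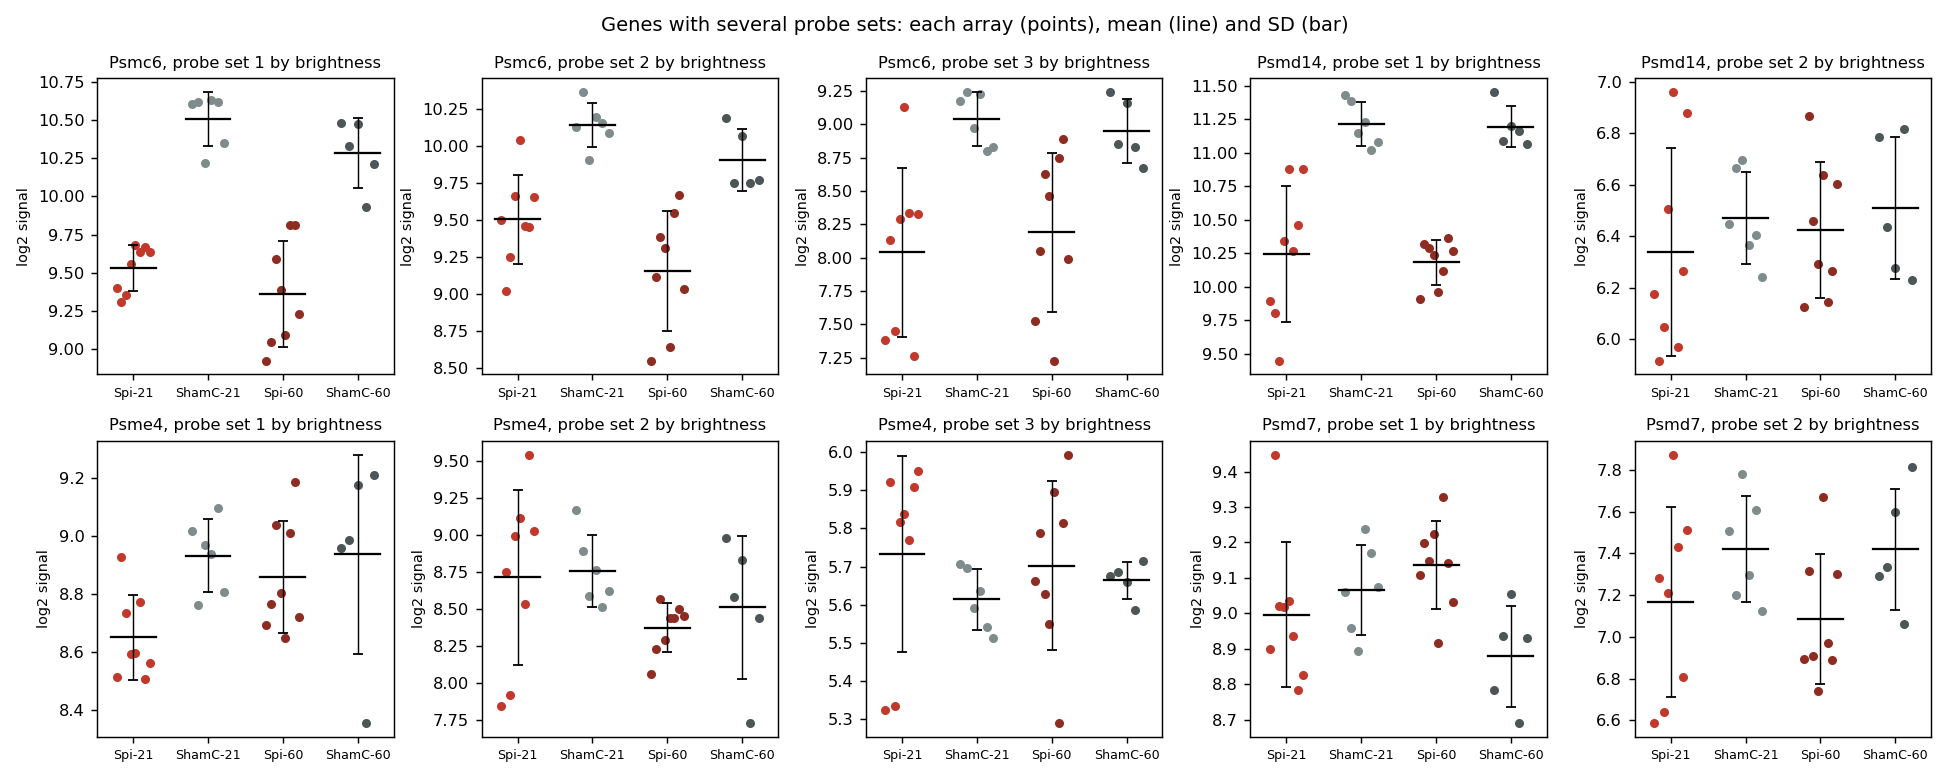
Log2 signal of each array (points), with group mean (line) and SD (bar), in Spi-21, ShamC-21, Spi-60 and ShamC-60 for every probe set of the 4 genes with more than 1, each on its own axis. The Spi means lie below the ShamC means of the same day in all 3 sets of Psmc6, and Spi and ShamC separate in the brighter but not in the dimmer set of Psmd14.

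In the rest of the base, Psmd1 and Psmd2 form the scaffold and Psmd4 is a ubiquitin receptor, and 0 of 3 passed at either day. Psmd4 spanned 7.67, 8.07 and 8.36 in Spi-21, against 7.66, 7.76 and 7.88 in ShamC-21, with a difference of 0.27 ± 0.13 (limma, adjusted p = 0.119), and 0.21 at 60 days (limma, adjusted p = 0.265), where it spanned 7.60, 7.99 and 8.53 in Spi-60, against 7.97, 7.66, 7.82, 7.80 and 7.88 in ShamC-60. Psmd2 spanned 10.70, 11.03 and 11.45 in Spi-21, against 11.00, 11.14 and 11.49 in ShamC-21, and 11.10, 11.27 and 11.37 in Spi-60, against 10.88, 11.08, 11.22, 10.52 and 11.44 in ShamC-60. Its differences of -0.12 and 0.24 lay on opposite sides of 0. Psmd1 spanned 8.62, 9.28 and 9.54 in Spi-21, against 8.98, 9.41 and 9.67 in ShamC-21, and 8.79, 9.03 and 9.43 in Spi-60, against 9.13, 9.38, 9.49, 9.01 and 9.43 in ShamC-60. It differed by -0.21 and -0.24 and did not pass, and the groups overlapped.

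The lid holds Psmd14, the metalloprotease that cuts ubiquitin chains from substrates, and it showed the largest difference of the 41 genes at 60 days. Psmd14 spanned 9.45, 10.30 and 10.88 in Spi-21, against 11.02, 11.19 and 11.43 in ShamC-21, and 9.90, 10.25 and 10.36 in Spi-60, against 11.45, 11.09, 11.20, 11.16 and 11.07 in ShamC-60. All Spi arrays lay below all ShamC arrays at each day. The differences were -0.97 ± 0.16 (limma, adjusted p = 0.000195) and -1.01 ± 0.17 (limma, adjusted p = 0.000198). The dimmer second probe set of Psmd14 did not pass, with -0.13 (limma, adjusted p = 0.579) and -0.08 (limma, adjusted p = 0.755), and the cause of the disagreement was not tested.

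Psmd8, a lid subunit, rose at both days. It spanned 7.02, 7.42 and 8.00 in Spi-21, against 6.87, 6.98 and 7.08 in ShamC-21, and 7 of 8 Spi-21 arrays lay above every ShamC-21 array. At 60 days it spanned 7.14, 7.68 and 8.26 in Spi-60, against 6.99, 7.08, 7.18, 6.69 and 7.29 in ShamC-60, and 6 of 8 lay above. The differences were 0.52 ± 0.16 (limma, adjusted p = 0.0201) and 0.66 ± 0.17 (limma, adjusted p = 0.00736).

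Psmd12, another lid subunit, fell at 60 days. It spanned 10.15, 10.50 and 10.69 in Spi-60, against 10.72, 11.15, 11.50, 10.21 and 11.31 in ShamC-60, and replicate 4 was the ShamC-60 array that overlapped. The difference was -0.54 ± 0.18 (limma, adjusted p = 0.0378), and the call ended without Spi-60 replicate 1, 3, 4 or 8 or ShamC-60 replicate 2, 3 or 5, with an adjusted p of up to 0.131. At 21 days the values were 10.38, 10.84 and 11.23 in Spi-21, against 10.85, 11.13 and 11.75 in ShamC-21, and the difference was -0.36 (limma, adjusted p = 0.126). Psmd7, a lid subunit that pairs with Psmd14, spanned 8.78, 8.98 and 9.45 in Spi-21, against 8.89, 9.07 and 9.24 in ShamC-21, and 8.92, 9.15 and 9.33 in Spi-60, against 8.78, 8.94, 9.05, 8.69 and 8.93 in ShamC-60, and 6 of 8 Spi-60 arrays lay above every ShamC-60 array. Psmd3, Psmd6 and Psmd7 differed by between -0.07 and 0.26 on their brightest probe sets and did not pass at either day. The dimmer Psmd7 probe set differed by -0.25 at 21 days (limma adjusted p = 0.319) and by -0.33 at 60 days (limma adjusted p = 0.216), so the Psmd7 probe sets disagreed in sign at 60 days.

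Among the activators and inhibitors, Psmf1, which encodes the inhibitor PI31, rose at both days. It spanned 8.93, 9.46 and 9.75 in Spi-21, against 8.55, 8.83 and 9.12 in ShamC-21, with 7 of 8 Spi-21 arrays above every ShamC-21 array. In the later groups it spanned 8.98, 9.51 and 9.97 in Spi-60, against 8.65, 8.88, 9.15, 7.89 and 9.18 in ShamC-60, with 5 of 8 above. The differences were 0.55 ± 0.18 (limma, adjusted p = 0.0289) and 0.71 ± 0.19 (limma, adjusted p = 0.0104). Replicate 4 was the lowest ShamC-60 array here too, and the 21-day call ended without Spi-21 replicate 6 or ShamC-21 replicate 1 or 6, with an adjusted p of up to 0.0719.

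The PA28 subunits Psme1 and Psme2 and PA200, encoded by Psme4, did not pass. Psme1 spanned 5.89, 6.54 and 7.31 in Spi-21, against 6.15, 6.33 and 6.44 in ShamC-21, and 6.23, 6.62 and 7.23 in Spi-60, against 7.08, 6.67, 6.20, 7.06 and 6.50 in ShamC-60. The differences were 0.26 and -0.08, and the groups overlapped. Psme2 spanned 8.17, 8.74 and 9.31 in Spi-21, against 8.51, 8.67 and 9.02 in ShamC-21, and 7.86, 8.65 and 8.99 in Spi-60, against 8.79, 8.90, 8.90, 8.47 and 9.18 in ShamC-60. It differed by 0.01 and -0.25, with overlap at both days. Psme4 spanned 8.51, 8.60 and 8.93 in Spi-21, against 8.76, 8.95 and 9.10 in ShamC-21, and 8.65, 8.79 and 9.18 in Spi-60, against 8.96, 8.99, 9.18, 8.35 and 9.21 in ShamC-60. It differed by -0.28 ± 0.11 at 21 days (limma, adjusted p = 0.071), where 6 of 8 Spi-21 arrays lay below every ShamC-21 array, and by -0.08 at 60 days. The other probe sets of Psme4 did not pass at either day. The second by brightness differed by -0.04 and -0.14, and the dimmest by 0.12 and 0.04. On the dimmest set 6 of 8 Spi-21 arrays lay above every ShamC-21 array, so the Psme4 probe sets disagreed in sign at 21 days.

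Of the assembly chaperones, Psmd5 (a base chaperone) fell at 21 days. It spanned 6.15, 7.03 and 8.08 in Spi-21, against 7.64, 7.78 and 8.47 in ShamC-21, and 5 of 8 Spi-21 arrays lay below every ShamC-21 array. The difference was -0.79 ± 0.22 (limma, adjusted p = 0.0142). At 60 days it spanned 7.17, 7.67 and 7.83 in Spi-60, against 8.20, 7.88, 8.16, 8.02 and 7.85 in ShamC-60, and all 8 lay below, yet -0.41 ± 0.24 did not pass (limma, adjusted p = 0.232). With only the arrays of the groups compared, Psmd5 passed at 60 days (limma, adjusted p = 0.023) and its 21-day call ended.

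Psmg4, a chaperone of core assembly, spanned 7.35, 7.56 and 7.91 in Spi-21, against 7.72, 7.82 and 8.06 in ShamC-21, and 7.50, 7.64 and 7.72 in Spi-60, against 7.78, 7.92, 7.82, 7.66 and 7.78 in ShamC-60. It differed by -0.22 (limma, adjusted p = 0.0574) and -0.17. Psmd9, another base chaperone, spanned 6.90, 7.46 and 7.95 in Spi-21, against 7.05, 7.23 and 7.30 in ShamC-21, and 7.20, 7.41 and 7.67 in Spi-60, against 7.21, 7.17, 7.23, 6.76 and 7.09 in ShamC-60, and 6 of 8 Spi arrays lay above every ShamC array at each day. It differed by 0.24 (limma, adjusted p = 0.135) and 0.31 (limma, adjusted p = 0.0703). Psmg1, Psmg2 and Psmg3 differed by between -0.18 and 0.08 and did not pass. Psmc3ip, which is no subunit, spanned 5.94, 6.05 and 6.58 in Spi-21, against 5.97, 6.40 and 6.44 in ShamC-21, and 5.80, 6.13 and 6.32 in Spi-60, against 6.60, 5.99, 6.07, 6.66 and 5.94 in ShamC-60. It differed by -0.17 and -0.14 and did not pass.

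At 21 days the arrays of 1 member did not overlap on the higher side and those of 2 on the lower side, against 3.17% and 2.3% of all genes. At 60 days the counts were 2 and 4, against 5.11% and 3.6% of all genes.

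**Figure D3:**
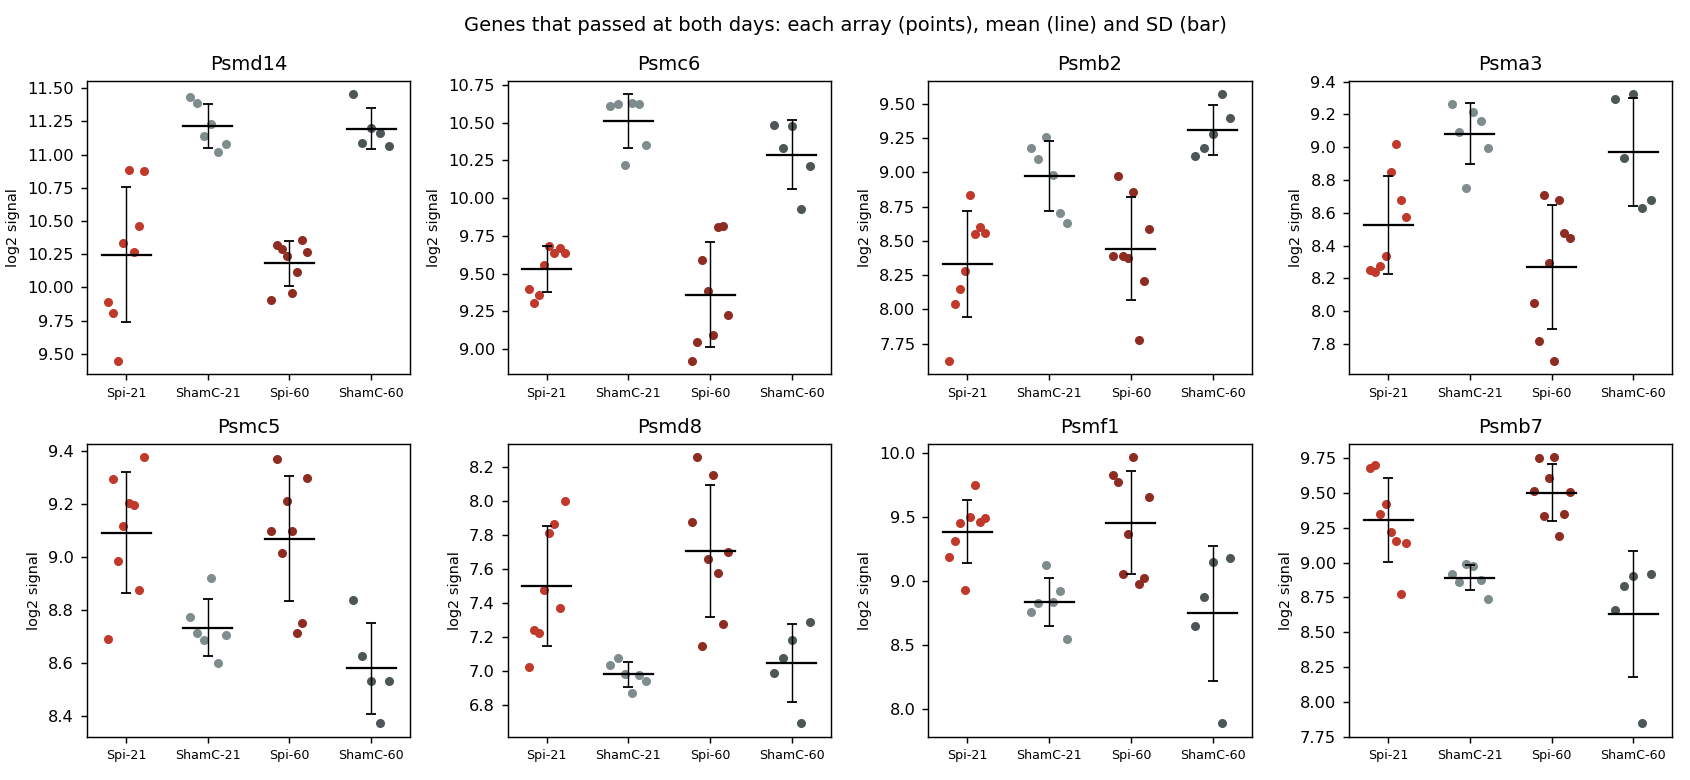
Log2 signal of each array (points), with group mean (line) and SD (bar), in Spi-21, ShamC-21, Spi-60 and ShamC-60 for the 8 genes that passed at both days. Psmc6 and Psmd14 lie lower in every Spi array than in every ShamC array of the same day, and Psmb7 does not overlap at 60 days.

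Of the 10 genes that passed at 21 days, 8 passed in the same direction at 60 days (80% of the first list and 72.7% of the second): Psmc6, Psmd14, Psmb2 and Psma3 fell, and Psmb7, Psmc5, Psmd8 and Psmf1 rose. Over all genes 1036 did so (10.6%), which is 46.9% of those that passed at 21 days and 52.7% of those that passed at 60 days. Each day has its own ShamC arrays. The sign was the same at both days in 31 of the 41 members (75.6%), against 77.7% of all genes.

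**Figure D4:**
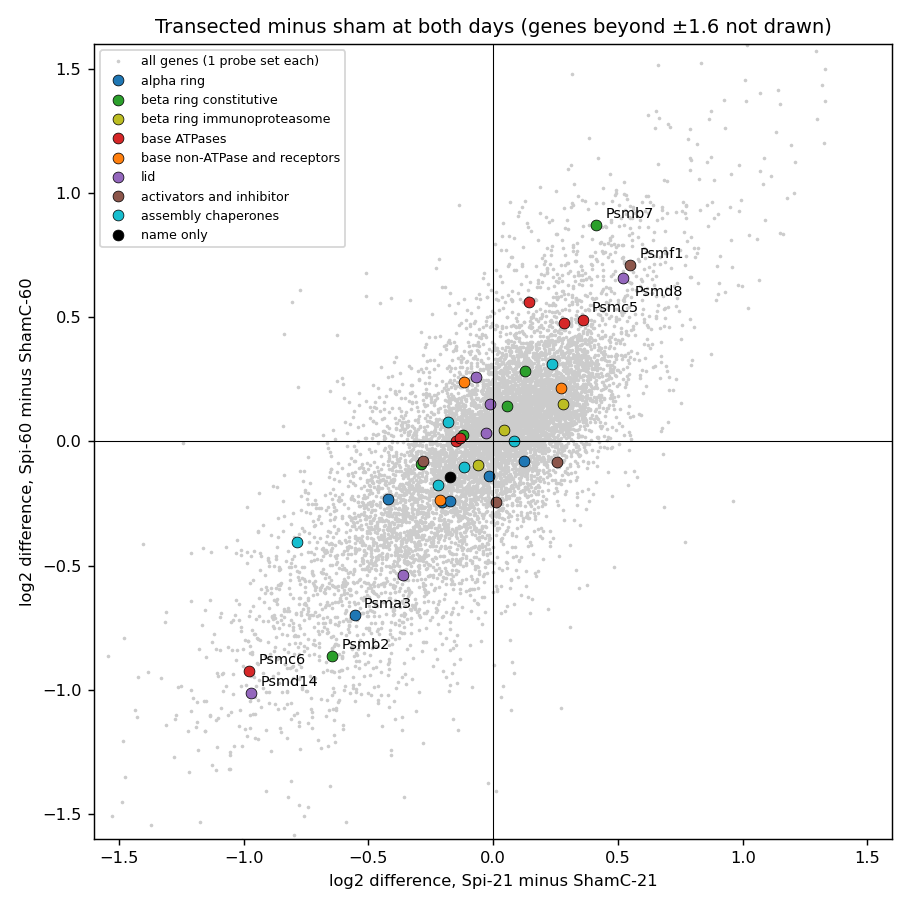
Log2 difference, Spi minus ShamC, at 60 days against that at 21 days for the 41 genes, with the genes that passed at both days labelled. Small grey points are all genes, and the few beyond 1.6 in size are not drawn. Psmc6, Psmd14, Psmb2 and Psma3 lie at the lower left and Psmb7, Psmf1, Psmd8 and Psmc5 at the upper right.

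The effect of transection was not shown to differ between the days in any member: 0 of 41 passed in the difference of the effects in limma (0.0% of all genes), and 3 had an unadjusted p under 0.05, against 7.16% of all genes. These 3 were Psmd7 (0.33, limma, adjusted p = 0.653), Psmb7 (0.46, limma, adjusted p = 0.703) and Psmd2 (0.35, limma, adjusted p = 0.703). The same value on the dimmer Psmd7 probe set was -0.08. Between Spi-60 and Spi-21 the limma count was 0 of 41 (0.0921% of all genes), and 2 had an unadjusted p under 0.05 (13.3% of all genes). The smallest p values belonged to Psmd5 (0.49, limma, adjusted p = 0.307), Psmd12 (-0.35, limma, adjusted p = 0.337) and Psme4 (0.21, limma, adjusted p = 0.394). The same Psme4 value was -0.34 on its second probe set by brightness and -0.03 on its dimmest. Between ShamC-60 and ShamC-21 the limma count was 0 of 41 (0.0% of all genes), with 0 at an unadjusted p under 0.05 (4.2% of all genes). Psme1 had the smallest p there with 0.40.

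The Spi-21 arrays were not uniform. Replicates 1 to 4 had a GAPDH 3' minus 5' difference of 2.57 to 3.47 and replicates 5 to 8 one of 0.985 to 1.46, below every ShamC-21 array (2.65 to 3.26). The same difference ran from 2.85 to 3.85 in Spi-60 arrays, against 2.31 to 2.92 in ShamC-60 arrays. The values of replicates 1 to 4 did not overlap those of replicates 5 to 8 in 11 of the 41 members (26.8%, against 10.6% of all genes), 10 of them lower in replicates 1 to 4. Without replicates 5 to 8 the 21-day counts were 2 higher and 12 lower, and without replicates 1 to 4 they were 5 higher and 3 lower. Of all probe sets 14.8% passed higher and 15.5% lower without replicates 5 to 8. Without replicates 1 to 4 these shares were 5.26% and 5.08%, and with all arrays 11.3% and 11.2%. Without replicates 5 to 8 the calls of Psmc5, Psmd8 and Psmf1 ended, and without replicates 1 to 4 those of Psma1, Psma3, Psmb2, Psmb7 and Psmd5. Other members then passed: without replicates 5 to 8, Psma5, Psma6, Psmc1, Psmd1, Psmd12 and Psmg1 fell and Psmd9 rose, and without replicates 1 to 4, Psmb1 and Psmg2 rose and Psmg4 fell. Psmc6 and Psmd14 passed in both settings, and the difference of Psmd14 was -1.34 without replicates 5 to 8 and -0.59 without replicates 1 to 4. The labels name no batch, and the part of RNA quality in this split was not tested.

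**Figure D5:**
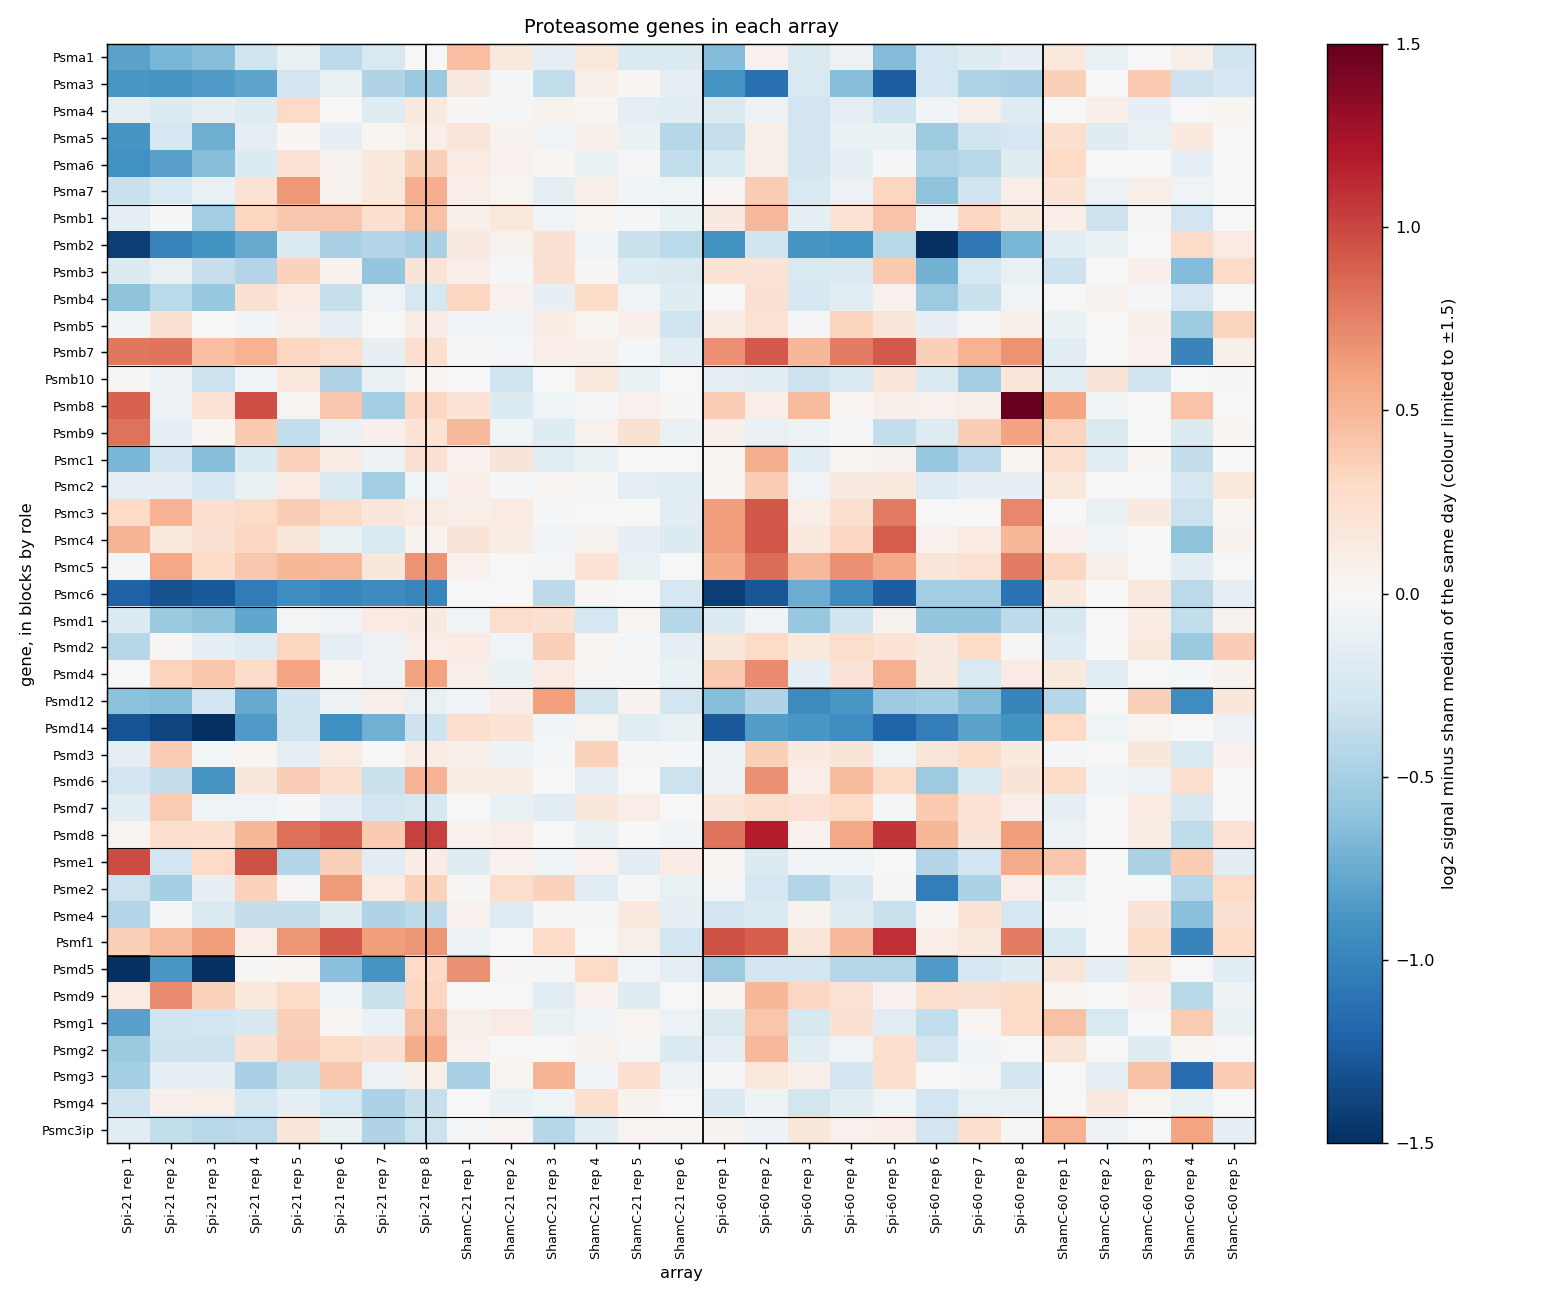
Log2 signal of each of the 41 genes (down, in blocks by role) in each array (across), minus the ShamC median of the same day, with red above and blue below it and colours limited to 1.5. Psmc6 is blue in all Spi arrays, Psmb7 and Psmf1 are mostly red, and in ShamC-60 replicate 4 many genes are blue.

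Other genes of the ubiquitin and proteasome pathway were read from a list of 42, of which 28 had a single-symbol probe set. At 21 days 6 rose and 8 fell, where 22.6% of all genes tested passed in either direction. At 60 days 8 rose and 7 fell, where that share was 20.1%. This list too was chosen with earlier results of these data known. Sem1, a small lid subunit whose symbol lacks the Psm prefix, spanned 9.16, 9.40 and 9.58 in Spi-21, against 9.75, 9.82 and 10.07 in ShamC-21, with all 8 Spi arrays below all ShamC arrays at both days (-0.48 ± 0.08, limma, adjusted p = 0.00015, and -0.57 ± 0.08, limma, adjusted p = 3.19e-05). The unfoldase Vcp rose by 0.59 and 0.65, and its cofactors Faf2 (0.76 and 0.84) and Nsfl1c (0.79 and 0.82) rose at both days. Vcp spanned 9.15, 9.50 and 9.89 in Spi-60, against 7.82, 9.10 and 9.25 in ShamC-60, with 6 of 8 above. Faf2 values in Spi arrays lay above every ShamC array of the same day. Of the 5 measured unfoldase genes 3 rose and 0 fell at each day. The shares of all genes that rose and fell were 11.1% and 11.5% at 21 days and 10.7% and 9.44% at 60 days. Faf1, another cofactor, differed by -0.44 at 21 days (limma adjusted p = 0.116) and by -0.58 at 60 days (limma adjusted p = 0.055) and did not pass, with 7 of 8 Spi-60 arrays below every ShamC-60 array. Nploc4, whose product works with Ufd1, differed by -0.17 and by 0.30 and did not pass at either day.

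Of the transcription factors of proteasome genes, Nfe2l1 rose by 0.39 ± 0.13 (limma, adjusted p = 0.038) and 0.53 ± 0.14 (limma, adjusted p = 0.00982). At 60 days it spanned 8.28, 8.46 and 8.65 in Spi-60, against 7.16, 8.09 and 8.30 in ShamC-60, with 7 of 8 above. Nfe2l2 fell by 0.73 (limma, adjusted p = 0.0434) and 0.94 (limma, adjusted p = 0.0178). Ngly1, the glycanase that processes Nfe2l1 protein, did not pass at 21 days (-0.64, limma, adjusted p = 0.0666) and fell by 1.08 at 60 days (limma, adjusted p = 0.00602). Fbxo7, which binds PI31, did not pass at 21 days (0.34) and rose by 0.99 at 60 days (limma, adjusted p = 0.000139). Pomp, the core maturation factor, differed by -0.08 and -0.11 and did not pass.

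Shuttle factor Rad23b fell by 0.56 and 0.32, and the proteasome-bound Txnl1 fell by 0.42 and 0.41. The deubiquitinase Uchl5 fell by 0.54 at 21 days and missed the threshold at 60 days (-0.24). Its docking subunit Adrm1 differed by 0.33 and 0.40 and did not pass. The proteasome-bound Ube3c did not pass at 21 days (0.08) and rose by 0.39 at 60 days (limma, adjusted p = 0.0236). The activating enzyme Uba1 rose by 0.44 and 0.86. Of the peptidases that act after the proteasome, Thop1 rose by 0.53 and 0.61, while Tpp2 fell by 0.37 and 0.42 and Lap3 by 0.94 and 1.20, all past the threshold at both days. Nln, of the same class, fell by 0.54 at 21 days (limma, adjusted p = 0.0245) and did not pass at 60 days (-0.30).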

How the data were processed

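RNA of 27 samples was measured on Affymetrix rat arrays. The deposited values are log2 signals made by RMA, per the submitters' processing notes. RMA corrects background, normalizes arrays to each other and summarises the probes of a set. The RMA version is not given in the sources used here. Values of the 12919 deposited probe sets ran from 0 to 14.6, with array medians between 6.31 and 6.41, which were read as log2 from their range. Every column matched a sample by name. The number of arrays per group limits the precision.

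Groups were compared by limma 3.58.1 (lmFit, then eBayes; R 4.3.3) on these values, with the 27 arrays in 4 groups, 5 contrasts and no covariates, two-sided, with Benjamini-Hochberg adjustment over the 12913 probe sets left after 6 control sets, at a threshold of 0.05. The fit was also tested on simulated data with known changes. Gene symbols came from the platform annotation: 11880 probe sets had 1 symbol, 320 several and 713 none. Gene IDs of the 41 members were all in a RefSeq gene table. Upstream sequence came from RefSeq's promoter table, build GRCr8. Plots used Python 3.11.15 and matplotlib 3.10.9.

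Every member is named. Values by array or range are given by rule for the 3 members with the smallest p per role, for a fixed set (Psmb5, Psmb7, Psmb8, Psmb9, Psmb10, Psmd14, Psme1 and Psme2) and for the 3 smallest p of each comparison between days. The members and lists were chosen with earlier results of these data known. Marker lists of cell types were read as means. Alternatives were normalization, array weights, a trend and robust spread, a dim-probe filter, only the groups compared, arrays left out singly and in sets, and a replicate block. The labels do not say whether replicate numbers pair the samples, and the few same-numbered pairs cannot settle it. Of 11 such pairs, correlations of deviations lay between -0.309 and 0.331, 4 exceeded 0.1 and 3 were best with their own number.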

Additional observations from a re-analysis of the deposited data

Results flagged for a closer look

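Of 164 groups of arrays tested, 8 (4.88%) had a highest or lowest array apart from the others by Dixon's test, near the 1 in 20 that chance gives. Of them, 3 were low in ShamC-60 replicate 4: Psmb4 at 11.9 (others 12.1 to 12.2), Psmb7 at 7.84 (others 8.66 to 8.92) and Psmc4 at 8.57 (others 9.12 to 9.23). That array also had the lowest motor neuron marker mean, 9.44. Psmb8 was 7.65 in Spi-60 replicate 8 (others 6.14 to 6.60), the array with the highest microglial marker mean of its group, 7.46. The astrocyte, oligodendrocyte and other neuron marker means of that array were also the highest of its group. In ShamC-21 replicate 6, Psmb5 was 11.9 and Psmg2 8.30, both below the others. Psmd3 was 8.47 in ShamC-21 replicate 4 and Psmd7 9.45 in Spi-21 replicate 2, both above the others. The part of these arrays' RNA in the values was not tested.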

How the results depend on the processing

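Among the proteasome genes, no difference past the threshold changed direction under the alternatives that were run; the other pathway genes were not refitted under them. At 21 days the count of members that rose was 2 without Spi-21 replicates 5 to 8 together and 7 with quantile normalization, against 4 reported, and the count that fell was 12 without replicates 5 to 8 and 3 without replicates 1 to 4, against 6. At 60 days 7 members passed, 2 of them higher, without ShamC-60 replicates 1 and 4 together, against 11 and 6. Between Spi-60 and Spi-21 the count was 2, both lower (Psma6 and Psmd14), without Spi-21 replicates 1 to 4, against 0. In that setting 630 of the 12913 probe sets passed (2.63% higher and 2.25% lower), against 11 with all arrays. With single arrays left out, the counts at 21 days lay between 7 and 11 in all, 2 and 5 higher and 5 and 7 lower, and at 60 days between 8 and 13 in all, 3 and 8 higher and 4 and 5 lower; those of the other comparisons stayed at 0. The lowest count of higher genes, 2, was reached at 21 days without ShamC-21 replicate 1, 5 or 6, and 3 at 60 days without ShamC-60 replicate 4. With the replicate block the counts were 10 at 21 days and 13 at 60 days, where Psmd7 and Psmd9 also passed. Whether the replicate numbers pair the samples was not settled. With array weights 14 members passed at 21 days, 6 higher and 8 lower, where Psmd4, Psmd9, Psme4 and Psmg4 also passed. Of all probe sets 13.4% then passed higher and 13.1% lower. At 60 days Psmd1, Psmd9 and Psmg4 also passed with array weights. With only the arrays of the groups compared, the calls of Psma1 (limma, adjusted p = 0.0501) and Psmd5 (0.0555) at 21 days and of Psmc3 (0.0584) and Psmd12 (0.053) at 60 days ended, and with quantile normalization those of Psma1 (0.057) at 21 days and Psmd12 (0.0592) at 60 days. Other members then passed. With only the groups compared, these were Psmc3 and Psme4 at 21 days and Psmd5 and Psmd9 at 60 days. With quantile normalization they were Psmc3, Psmd4 and Psmd9 at 21 days and Psmb1, Psmd7 and Psmd9 at 60 days. Over all probe sets 2917 passed at 21 days. Without Spi-21 replicates 1 to 4 that count was 1335, and without replicates 5 to 8 it was 3903. At 60 days 797 passed without ShamC-60 replicates 1 and 4, against 2463. Why these counts moved was not tested. The spread between 5 to 8 arrays per group limits what small differences can be seen.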
